A study of Drosophila melanogaster with 8 samples.

Results

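Transcripts of 31 genes that act in neurons and at synapses were followed through 8 long-read cDNA libraries of Drosophila melanogaster. The 31 genes were taken from a named list of neuronal genes, chosen with earlier results of these data known. All deposited transcript rows that the BDGP6 annotation assigns to them, 255 in all, were summed per gene. They are 31 of the 14292 genes in the table, and 93 of their transcripts had a count above 0 in at least 1 library. Each of 8 groups has 1 library of the wild-type strain Oregon R: eyes, heads and salivary glands of females and of males, ovaries, and testes. No group carries a mutation, transgene or drug, and every library was made from total RNA in which ends of qtc transcripts had been amplified with gene-specific primers. The protocols, worded alike for all 8 samples, describe flies kept at 25 °C and taken 5 to 7 days after they hatched. Per the labels' protocols, heads were shaken from frozen bodies, eyes were taken from frozen heads, and testes and heads of males were also dissected in PBS. How salivary glands and ovaries were taken, and from how many animals each library came, was not stated there. With 1 library a group, p-values measure only the spread between tissues and sexes.

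A synapse passes a signal by fusing vesicles of transmitter with the membrane. The SNARE proteins syntaxin, SNAP-25 and synaptobrevin pull the membranes together, synaptotagmin senses calcium, complexin holds the machinery ready, and scaffold proteins of the active zone place vesicles beside calcium channels. In the fly head these genes are used by the neurons of the brain and by the photoreceptors of the compound eye, which are neurons themselves. Eyes are part of the head, so head libraries also hold RNA of eyes. In such bulk samples, fewer cells of a type and less RNA per cell cannot be told apart.

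The libraries held 88388 (testes) to 151408 (female salivary glands) estimated counts on annotated genes, so 1 count was 6.6 to 11.3 CPM (counts scaled to a common library total). A count of 0 allows up to 3 counts, or 19.8 to 33.9 CPM. Rows named as rRNA took 22% and 23.9% of the eye libraries, 8.21% and 12.6% of the head libraries and 1.94% to 7.93% of the rest. Of the marker lists, eggshell and female germline genes took 8.36% of female eyes against 15.9% of ovaries and 0.0152% to 0.0572% elsewhere. In that list nos was read as Nos, another gene, with 4 counts in female heads and 0 elsewhere. Digestive enzyme genes took 0.498% of female eyes against 0.00239% of male eyes. The female head library held 457.9 counts of Mst98Ca, a testis gene, where testes held 233.5 and male heads 0, and 19.9 counts of betaTub85D, a testis tubulin, against 130.2 in testes and 1 in male heads. Of 14 testis genes 10 were at 0 in it, and whether this library holds RNA of another sample was not tested. The photoreceptor list took 8.76% to 9.4% of heads, 5.37% of female and 19.2% of male eyes, and at most 0.039% of other libraries. The fat body list took 17.4% to 18% of salivary glands, and muscle genes 2.59% to 4.18% of heads against at most 0.742% elsewhere. Lsp2, a larval serum protein gene, made up most of the fat body sum, with 18587 of 27180.6 counts in female and 17135.2 of 23004 in male glands. Glial genes took 0.186% to 0.215% of heads and eyes and 0.00398% to 0.0394% elsewhere, with repo, the defining factor of glia, at 0 in all 8 libraries. Genes of blood cells took at most 0.00444% of any library. The part of these lists in the results on neuronal genes was not tested.

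The 31 genes together were most abundant in heads. Their summed share was 0.318% of the counts of female heads (Wilson interval 0.29% to 0.35%) and 0.396% of male heads (0.364% to 0.431%). It was 0.0898% in female eyes (0.0756% to 0.107%) and 0.182% in male eyes (0.16% to 0.207%). Salivary glands followed with 0.0312% in females and 0.0377% in males, testes with 0.017% and ovaries with 0.00847%. The Wilson intervals of female glands (0.0235% to 0.0414%) and testes (0.0103% to 0.028%) overlap, as do those of both gland libraries and those of ovaries and testes. Whether shares with overlapping intervals differ is not decided by the overlap and was not tested. Syt1 alone held 76.7% and 75.9% of the sums in female and male glands. Of the 31 genes, 30 had a count in at least 1 head library, 27 in eyes, 9 in salivary glands, 4 in testes and 3 in ovaries. Heads, eyes and glands have 2 libraries each and the gonads 1 each. By library, 27 and 28 genes had a count in female and male heads, 24 and 25 in eyes and 5 and 7 in glands. Over all genes, 25.7% to 36% had a count in a given library. The intervals given here, and the floors, hold counting error alone, since amplified reads were not collapsed to molecules.

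**Figure D1:**
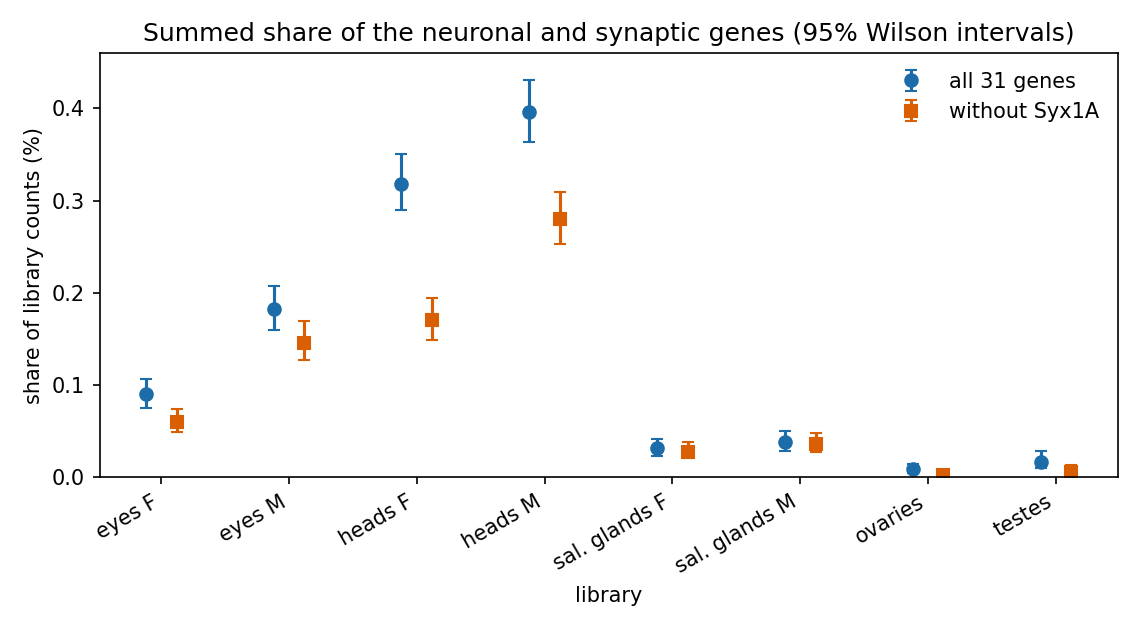
Share of each library's counts (%, vertical axis) taken by all 31 neuronal and synaptic genes (circles) and by the 30 genes other than Syx1A (squares), with 95% Wilson intervals, 1 library a point. For all 31 genes, both head libraries, at 0.318% and 0.396%, lie above the eye libraries, at 0.0898% and 0.182%, and the others; without Syx1A, female heads at 0.17% overlap male eyes at 0.146%.

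Syx1A had the most counts of the 31 genes in 5 libraries. It held 46.6% of the summed counts in female heads, 29.4% in male heads and 32.9% in female eyes, while futsch led in male eyes with 20.4%. Without Syx1A the share was 0.17% in female heads and 0.146% in male eyes, whose Wilson intervals (0.149% to 0.194% and 0.127% to 0.169%) overlap. Male heads remained highest at 0.28% and female eyes were at 0.0603%. With rRNA-named rows and qtc left out of the totals, eyes stood at 0.119% and 0.242% and heads at 0.352% and 0.466% (females and males).

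**Figure D2:**
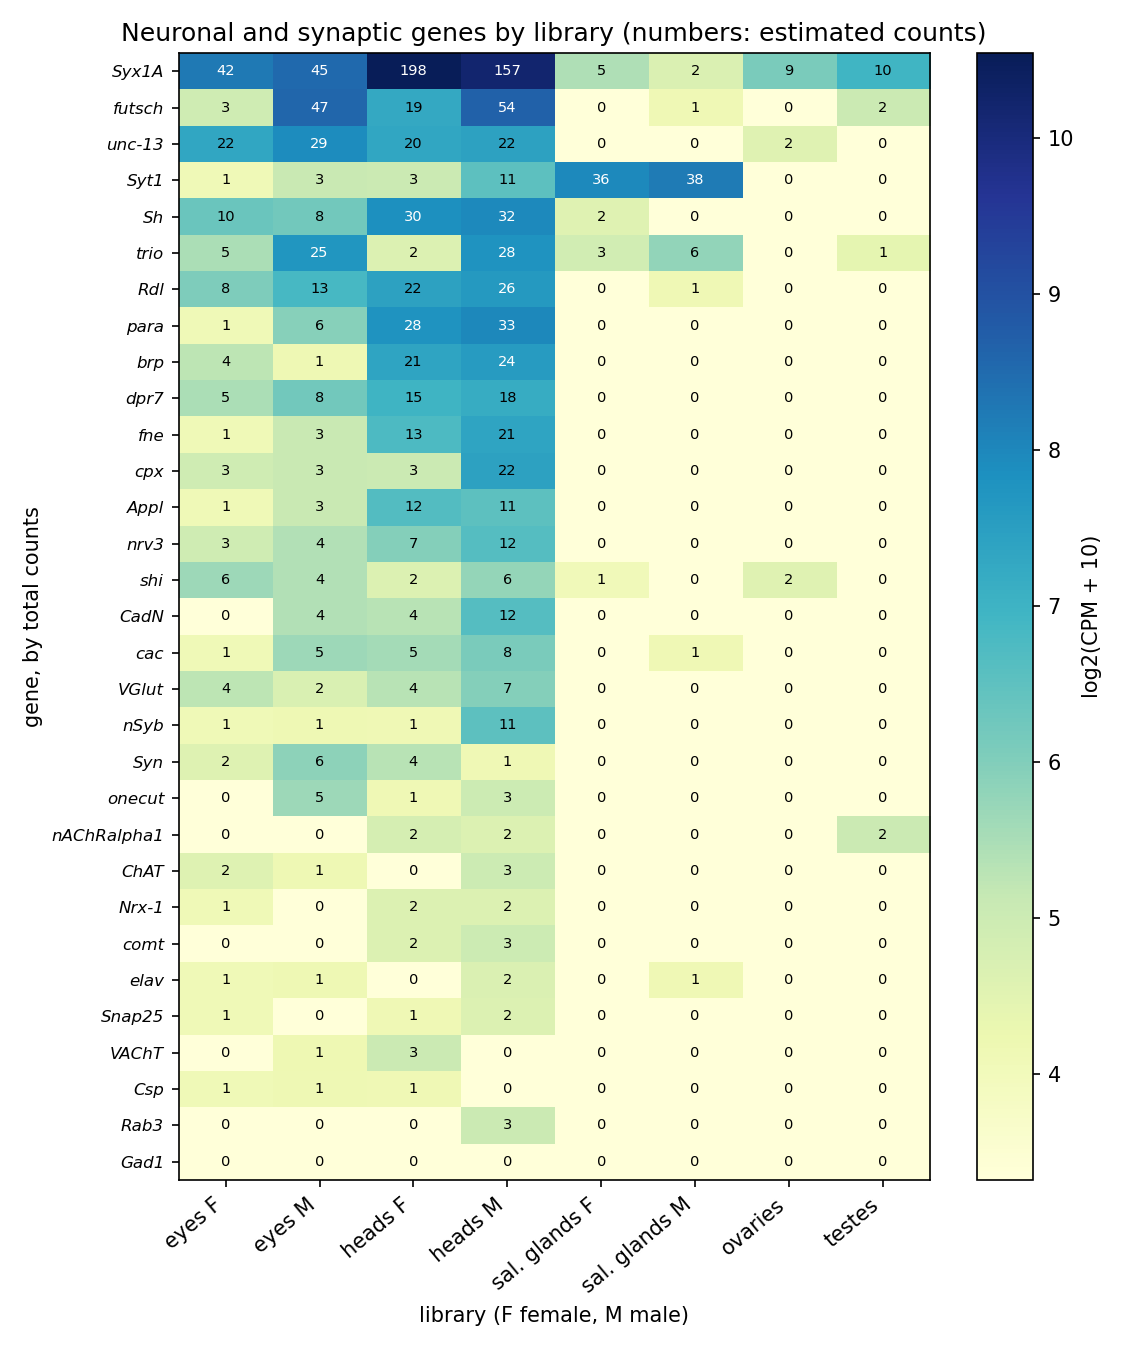
Colour gives log2(CPM + 10) of each of the 31 genes (rows, ordered by total counts) in each library (columns), and the printed number is the estimated count. Counts concentrate in the 4 head and eye columns, Syt1 stands out in both salivary gland columns, and Gad1 is at 0 throughout.

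The broadest neuronal markers were scarce. elav, whose RNA-binding protein marks all neurons, had 1 count in each eye library, 2 in male heads, 1 in male salivary glands and 0 in female heads. fne, a close relative of elav, was better measured, with 13 counts in female heads (97.4 CPM, exact Poisson interval 51.9 to 167) and 21 in male heads (155 CPM, 96.1 to 237). It had 1 and 3 counts in female and male eyes and 0 in the other libraries. Both head libraries thus lay above all others for fne, at 8.51 times the eye level (counting interval 3.03 to 33; counts of both sexes summed). onecut, a homeodomain factor of neurons, had 5 counts in male eyes, 3 in male heads, 1 in female heads and 0 in female eyes. elav overlaps the exons of other genes on both strands, so its few counts are uncertain.

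A gene was said to follow the head pattern when both head libraries lay above all 6 others in CPM. This was so for 13 of the 31 genes, against 6.45% of the 9990 genes with any count. As the genes were chosen with earlier results of these data known, this share and those below describe them and are not a test. With 10 or more counts in the 8 libraries together, 10 of 20 followed it, against 9.45% of 4171 genes. Passing that minimum favours genes that are high in some library, and the same minimum was set for the 4171. The 10 genes were fne, brp, para, Syx1A, VGlut, Rdl, Sh, Appl, nrv3 and dpr7. VGlut was nearest to the boundary, at 30 CPM in female heads against 27.9 in female eyes (4 counts in each). The 10 others with enough counts were nSyb, Syt1, futsch, cac, Syn, cpx, unc-13, shi, CadN and trio. The remaining 11 genes had under 10 counts, and Snap25, comt and Nrx-1 among them followed the pattern on 4 or 5 counts. By a separate rule, under which the lower Poisson bound of the pooled head counts had to lie above the upper bound of every other tissue, 9 genes passed, against 4.96% of the 4171 genes. Of these, 8 also followed the pattern by library, and cpx did not, at 22.5 CPM in female heads against 23.9 in male eyes. Without the female head library, where only male heads had to lie above the others, 23 of the 31 genes followed the pattern. That rule is easier to meet for any gene. With rRNA-named rows left out of totals 11 followed it, and by TPM 12. The share over all genes was not taken for these variants, so their counts describe the 31 genes alone.

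Among the SNARE genes, Syx1A, the syntaxin of the presynaptic membrane, had the highest count of all 31 genes. It was at 1483 CPM in female heads (198 counts, exact Poisson interval 1284 to 1705) and 1164 in male heads (157.3 counts, 989 to 1360). Eyes had 295 CPM in females and 359 in males, testes 113 and ovaries 58.2, and salivary glands 33 in females and 15.1 in males. Heads did not overlap any other library, and Syx1A was at 4.07 times the eye level (counting interval 3.22 to 5.23). The gene has counts in all 8 libraries, and its exons overlap those of eIF4EHP on the same strand, so part of them may belong to that gene. Of its SNARE partners, nSyb, the synaptobrevin of vesicles, had 11 counts in male heads and 1 in each of female heads and both eye libraries. Snap25 had 2 counts in male heads, 1 in female heads and 1 in female eyes. comt, the ATPase that takes SNARE complexes apart, had 2 and 3 counts in female and male heads and 0 elsewhere. The SNARE genes were therefore measured very unequally, with Syx1A at 497 TPM (the authors' length-corrected level) in male heads, nSyb at 48.6 and Snap25 at 6.84.

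brp, which encodes the Bruchpilot scaffold of the active zone, was high in both head libraries. It had 21 counts in female heads (157 CPM, exact Poisson interval 97.4 to 241) and 24 in male heads (178 CPM, 114 to 264). Eyes had 4 counts in females and 1 in males, and salivary glands, ovaries and testes had 0. The ratio of heads to eyes was 9.01 (counting interval 3.59 to 29.1). cpx, complexin, differed between the head libraries, with 3 counts in females (22.5 CPM) and 22 in males (163 CPM). Each eye library had 3 counts, so female heads were at the level of both eye libraries at this depth and male heads lay above all others. Of the other vesicle genes, Syn, the synapsin that tethers vesicles, was highest in male eyes with 6 counts, with 4 counts in female heads, 2 in female eyes and 1 in male heads. Rab3, a vesicle GTPase, had 3 counts in male heads and 0 elsewhere, and Csp, a vesicle chaperone, had 1 count in 3 libraries. shi, the dynamin of vesicle recovery, had 2 to 6 counts in each of the 4 eye and head libraries, 1 in female salivary glands and 2 in ovaries.

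unc-13, which primes vesicles for release, did not follow the head pattern. It was at 150 CPM in female eyes (21.6 counts, exact Poisson interval 93.8 to 229) and 229 in male eyes (28.7 counts, 153 to 329). Heads were at 150 CPM in females (91.6 to 232) and 163 in males (102 to 246), so eyes and heads overlapped. The ratio of heads to eyes was 0.837 (counting interval 0.544 to 1.29), against 9.01 for brp, and these intervals do not overlap. Ovaries had 2 counts, and salivary glands and testes had 0. The exons of unc-13 overlap 3 genes on the opposite strand, from which reads cannot be told apart where counting does not use strand.

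Syt1, synaptotagmin 1, was highest in salivary glands. This calcium sensor of synaptic vesicles had 36.2 counts in female salivary glands (239 CPM, exact Poisson interval 168 to 331) and 37.9 in male salivary glands (286 CPM, 202 to 393). Heads had 3 counts in females (22.5 CPM, 4.64 to 65.7) and 11 in males (81.4 CPM, 40.6 to 146). In eyes it had 1 count (females) and 3 counts (males), and ovaries and testes had 0. Both gland libraries lay above all 6 others, and glands were at 5.01 times the head level (counting interval 2.8 to 9.59). In the same glands the other 30 genes summed to 0.00727% and 0.00907% of the counts, with nSyb, Snap25, brp, cpx, Syn and Rab3 at 0 in both. The fat body list, mostly through Lsp2, took 17.4% to 18% of these libraries (its part was not tested). The protocols do not describe the glands apart from the collection of flies, and Sgs5, which encodes a glue protein of larval salivary glands, had 1704.9 and 1355.7 counts in female and male glands. Whether the gland donors were adults was not tested.

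**Figure D3:**
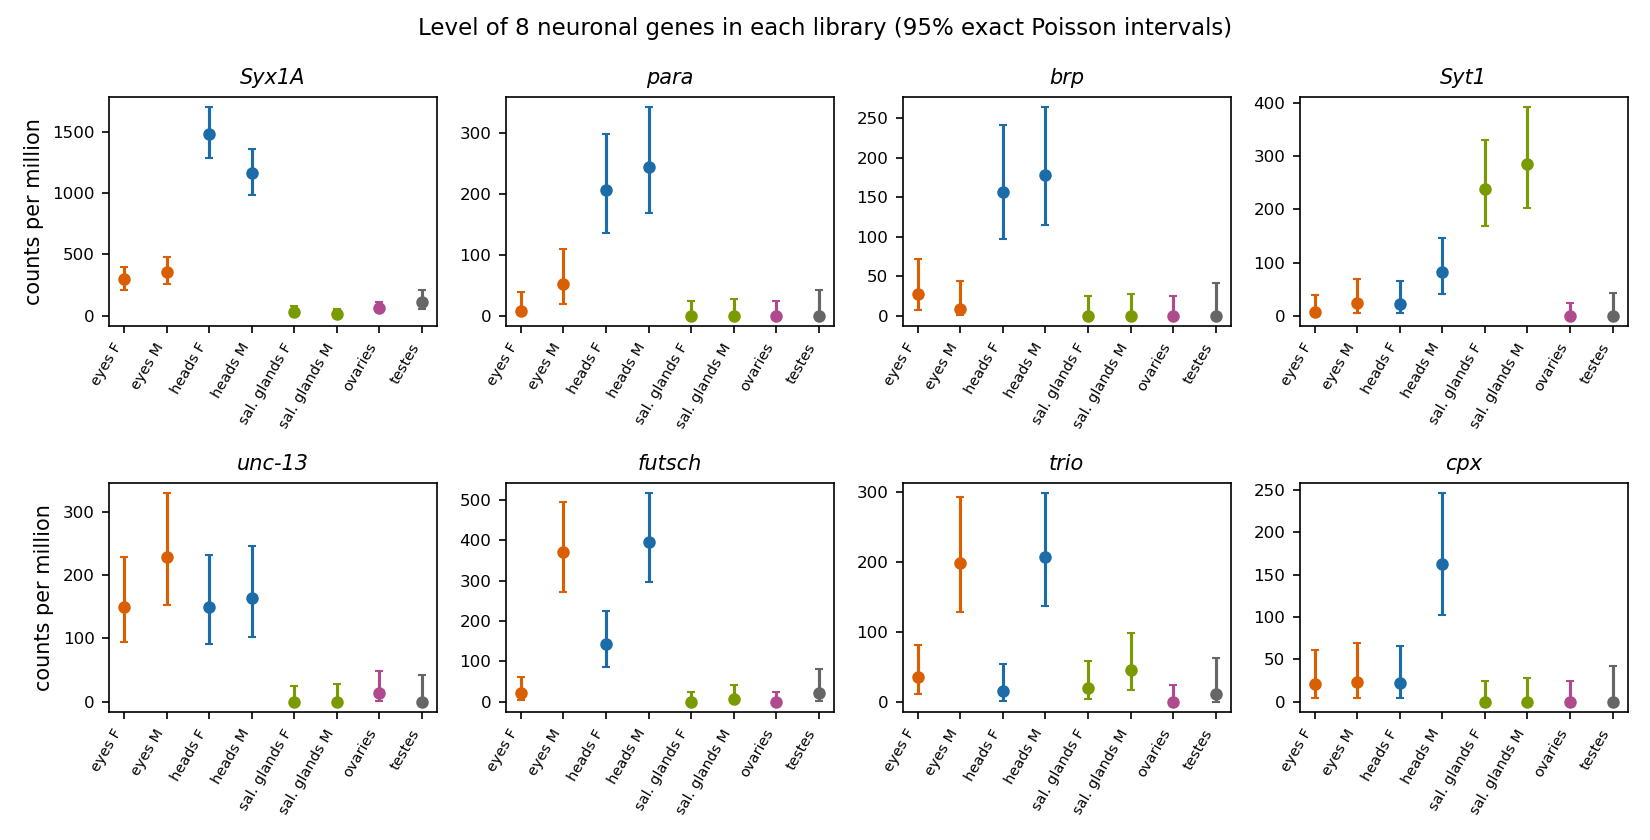
CPM (vertical axis, a separate scale in each panel) of 8 genes in each library, 1 point a library with the 95% exact Poisson interval. Syx1A, para and brp are highest in both head libraries, Syt1 in both salivary gland libraries, and futsch, trio and cpx differ between female and male heads.

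Ion channels and receptors mostly followed the heads. para, the voltage-gated sodium channel of the action potential, had 27.5 counts in female heads (206 CPM, exact Poisson interval 136 to 298) and 33 in male heads (244 CPM, 168 to 343). Female eyes had 1 count and male eyes 6.4, and the salivary glands and gonads had 0, so heads did not overlap any other library. Sh, the Shaker potassium channel, was at 222 CPM in female and 238 in male heads against 69.8 in female and 63.7 in male eyes. Rdl, a GABA receptor subunit, had 21.6 and 25.5 counts in female and male heads, 8 and 13 in the eyes of females and males, and 1 in male salivary glands. The ratio of heads to eyes was 8.15 for para (counting interval 3.92 to 22.3), 3.44 for Sh (2.01 to 6.19) and 2.24 for Rdl (1.31 to 3.95). The interval of para overlaps that of Sh, and that of Rdl from 3.92 to 3.95. Overlap of intervals does not decide whether these ratios differ, and this was not tested. cac, the calcium channel of the active zone, had 5 and 8 counts in female and male heads and 1 and 5 in eyes, and its ratio of 2.17 has an interval from 0.769 to 6.96. nAChRalpha1, a subunit of the acetylcholine receptor, had 2.4 and 2 counts in female and male heads, 2 in testes and 0 elsewhere. nrv3, a beta subunit of the sodium pump, had 6.9 and 12 counts in female and male heads against 3 and 4 in eyes and 0 elsewhere.

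Genes that define the transmitter of a neuron were close to the limit of detection. Gad1, which makes GABA, was at 0 in all 8 libraries. In heads this allows up to 22.5 CPM in females and 22.2 in males. ChAT, which makes acetylcholine, had 3 counts in male heads, 2 in female eyes and 1 in male eyes. VAChT, the vesicular transporter of acetylcholine, had 3 counts in female heads and 1 in male eyes. ChAT and VAChT share exon sequence on the same strand of chromosome 3R, so their split rests on the authors' assignment of reads. VGlut, the vesicular glutamate transporter, had 4 and 7 counts in female and male heads and 4 and 2 in eyes. No ratio between transmitter types was drawn from counts of this size.

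Adhesion, cytoskeleton and signalling genes differed in their order of libraries. dpr7, an immunoglobulin protein of neuronal surfaces, had 15.4 counts in female heads, 18 in male heads, 5 in female eyes and 8 in male eyes. Appl, the fly relative of the amyloid precursor protein, had 12.2 and 11 counts in female and male heads against 1 and 3 in eyes. Neither gene had counts in salivary glands or gonads. CadN, the neuronal cadherin, had 4 and 12 counts in female and male heads and 0 and 4 in eyes, and Nrx-1, a neurexin, 2 in each head library and 1 in female eyes. futsch, a microtubule-associated protein of axons, had 19.2 counts in female heads (144 CPM, exact Poisson interval 87.1 to 225) and 53.5 in male heads (396 CPM, 297 to 517). Female eyes had 3 counts (21 CPM, 4.34 to 61.3) and male eyes 46.7 (372 CPM, 273 to 495). For futsch the male libraries of both tissues therefore lay above the female ones without overlap. trio, which acts in axon growth, had 28 counts in male and 2 in female heads, and 25 in male and 5 in female eyes. It also had 3 and 6 counts in female and male salivary glands and 1 in testes, and its pooled level in heads and eyes was the same, 112 CPM.

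Per length, the order of the genes was different from that by counts. In male heads the authors' TPM, summed per gene, placed Syx1A first of the 31 at 497 TPM. dpr7 followed at 119 TPM and Sh at 68.6 TPM, then nSyb at 48.6 TPM and nrv3 at 48.1 TPM. futsch had the second highest count of the 31 in male heads but, with transcripts of 19300 to 22255 bases, ranked 13 by TPM at 16.6. In female heads Syx1A was at 549 TPM, dpr7 at 88.9 TPM and Sh at 45.1 TPM.

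Tests were made across all genes of the 6 somatic libraries. edgeR was fitted as tissue plus sex on gene counts, and 1316 genes passed its filter on low counts at a minimum of 10. Only 12 of the 31 genes passed: fne, Syt1, brp, para, Syx1A, futsch, Rdl, Sh, Appl, unc-13, trio and dpr7. A gene could pass through the tissue in which it was high, so the 12 do not stand for all 31. The fit has 2 residual degrees of freedom and treats departures of a tissue from a shared sex difference as error.

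Salivary glands were compared with heads, which sets a secretory tissue beside the tissue that holds the brain. The fat body list, mostly through Lsp2, took 17.4% to 18% of glands against 0.251% to 0.307% of heads. Of 9 fat body genes tested, 6 had estimates higher in glands and 3 lower. Adh, for example, had 23.9 and 9.6 counts in female and male glands against 91.7 and 115.5 in heads. Whether the gland donors were adults was not tested. This comparison cannot tell tissue apart from fat body or stage. Of the 12 genes tested, 9 were lower and 1 was higher in glands at an adjusted p under 0.05, where 13.3% of all 1316 genes were lower and 13.7% higher. Syx1A was 53.6 times higher in heads by pooled counts (counting interval 25.7 to 134; log2 fold change of glands over heads -5.06 ± 0.797 SE, edgeR adjusted p = 0.014). With 0 counts in both gland libraries set to 3 counts over both together, heads were 21.3-fold higher for para (edgeR adjusted p = 0.0268). It was at least 15.9-fold higher for brp (0.0336), 14.8-fold for unc-13 (0.023), 12-fold for fne (0.047) and 11.8-fold for dpr7 (0.0368), each with its edgeR adjusted p in brackets. futsch was 76.9 times higher in heads (13.4 to 3088, 1 count in glands; edgeR adjusted p = 0.0244). Rdl was 49.3 times higher (8.49 to 2003, 1 count; edgeR adjusted p = 0.0291) and Sh 32.7 times higher (8.69 to 277, 2 counts; edgeR adjusted p = 0.032). Appl, 8.16-fold higher in heads by such a bound, did not pass (edgeR adjusted p = 0.0853), nor did trio (log2 fold change -0.58 ± 0.928 SE, edgeR adjusted p = 0.649).

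Syt1 was the 1 gene of the 12 that was higher in glands (log2 fold change 3.19 ± 0.788 SE, edgeR adjusted p = 0.0319). Its call was lost with library totals in place of TMM (log2 fold change 2.52, adjusted p = 0.0504) and without the female head, the male head or the female gland library (adjusted p = 0.354, 0.206 and 0.278). Over 14 alternatives its fold change stayed between 2.08 and 4.08 and its adjusted p between 2.42e-04 and 0.354. Syx1A, unc-13 and para were lower in glands at an adjusted p under 0.05 in all 14 alternatives. Leaving out 1 library lost the call of fne and dpr7 for each of both head and both gland libraries (adjusted p = 0.0518 to 0.257). It lost that of brp without female heads (0.0755), male heads (0.179) or male glands (0.0545) and that of Rdl without female heads (0.0774) or female glands (0.0532). It also lost those of Sh and futsch without male glands (0.142 and 0.0623). The estimate was below 0 for 11 of the 12 and above 0 for 1, against 47.5% and 52.5% of all genes. By counting interval 7 genes were higher in heads than in glands and Syt1 was lower. A further 16 genes, at 0 in glands, were higher only by a bound from 3 counts. Such bounds went down to 1.41, and a bound near 1 need not exclude equal levels. Intervals and bounds together gave 23 genes higher and Syt1 lower, against 41.2% and 18.7% of 3828 genes by the same rule. Of the 12, 6 were at 0 in both gland libraries, against 122 of the 1316. These 6 passed the filter through heads or eyes, so their sign was fixed in advance. The signs and medians of the 12 therefore only describe the genes tested. The median log2 fold change of the 12 was -5.95, against 0.14 over all 1316 genes. With genes at 0 set to their bound and library totals as scale, these medians were -3.94 and -0.54.

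Eyes were compared with heads, the part with the whole. By edgeR 0 of the 12 had an adjusted p under 0.05 and 3 an unadjusted one, all lower in eyes. limma-voom and DESeq2 also called 0, but DESeq2 gave no adjusted p for Appl, dpr7, fne and brp and so could not call them. Of all 1316 genes edgeR called 0%, with 13.4% at an unadjusted p under 0.05 (6.53% lower). The 3 genes were para (log2 fold change -2.79 ± 0.963 SE), brp (-2.78 ± 1.06) and Syx1A (-1.57 ± 0.653), at edgeR adjusted p = 0.314, 0.357 and 0.372. The estimate was below 0 for 10 of the 12, against 48.2% of the 1316 genes, and above 0 for 2, against 51.8%: unc-13 (0.69 ± 0.701, edgeR adjusted p = 0.668) and trio (0.71 ± 0.817, edgeR adjusted p = 0.712). Without the male eye library para passed (log2 fold change -4.32, adjusted p = 0.0365; 0.0365 to 1 over 14 alternatives). The median of the 12 was -1.31, against 0.06 over all genes. By counting interval 14 of 24 genes with enough counts were higher in heads than in eyes and 0 lower. With comt and nAChRalpha1, at 0 in eyes and higher only by a bound from 3 counts, 16 were higher. By the same rule 25.2% of 3937 genes were higher and 16.3% lower. The totals behind these ratios include rRNA-named rows, at 22% and 23.9% of eyes against 8.21% and 12.6% of heads. Muscle genes, at 2.59% to 4.18% of heads and 0.173% to 0.742% of eyes, also had lower estimates in eyes, for 9 of 10 tested.

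**Figure D4:**
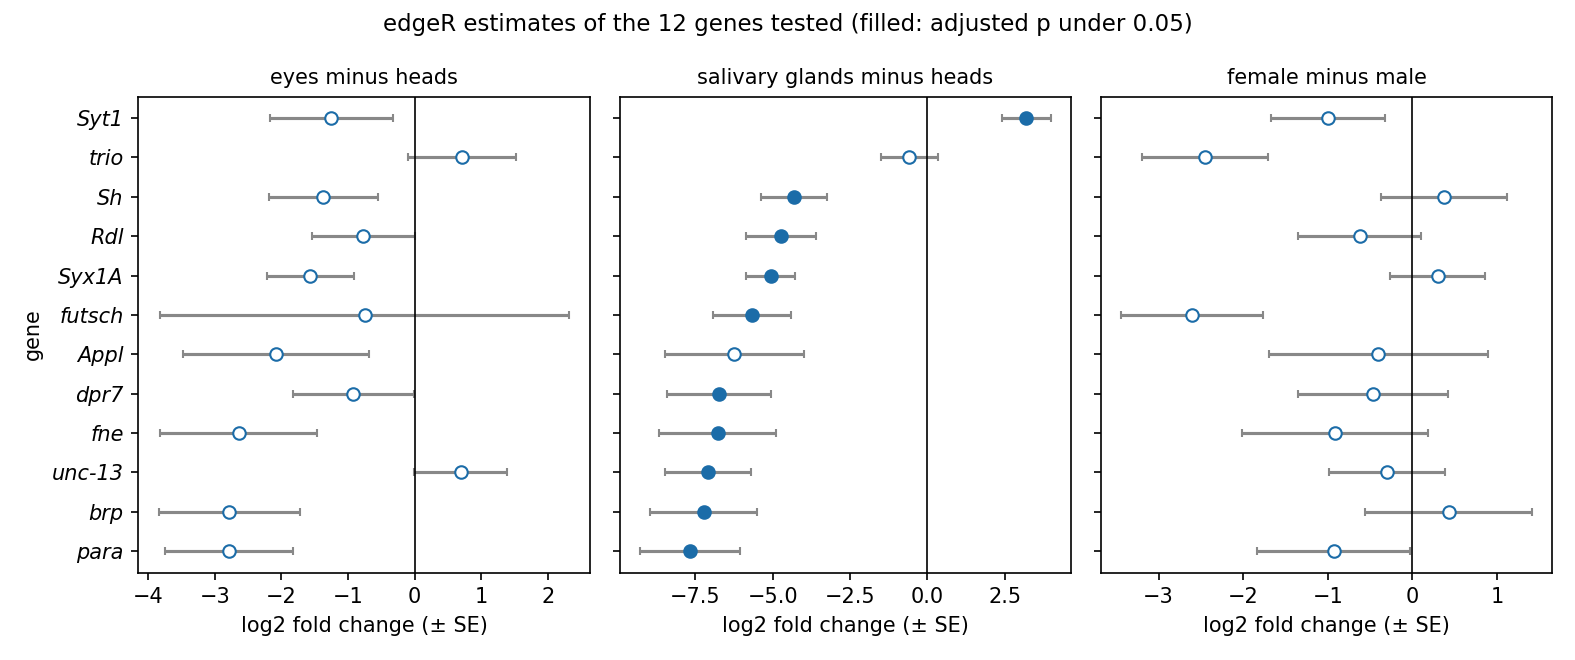
edgeR log2 fold changes (horizontal axis, a separate scale in each panel) with standard errors for the 12 genes tested, for eyes minus heads, salivary glands minus heads and female minus male. Filled points have an adjusted p under 0.05: 9 genes are lower and Syt1 is higher in salivary glands, and estimates of genes at 0 in glands depend on the fit's prior count.

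Females were compared with males over eyes, heads and salivary glands. By edgeR 0 of the 12 had an adjusted p under 0.05 and 2 an unadjusted one, both lower in females, while DESeq2 and limma-voom called 0 of them. Of all 1316 genes edgeR called 0%, with 2.58% at an unadjusted p under 0.05 (1.6% lower and 0.988% higher in females). The estimate was below 0 for 9 of the 12 and above 0 for 3, against 51.3% and 48.7% of all genes. The 2 genes were trio (female minus male -2.45 ± 0.743 SE) and futsch (-2.60 ± 0.838 SE), each at edgeR adjusted p = 0.963. Of the pairs of single libraries, male heads were above female heads by counting error for 4 of 20 genes and below for 1, against 14% and 12.7% of 2657 genes. The 4 were trio at 13.8 times (counting interval 3.49 to 120), nSyb at 10.9 times (1.58 to 468), cpx at 7.24 times (2.18 to 37.8) and futsch at 2.75 times (1.64 to 5.01). Syx1A was at 0.784 times (0.631 to 0.97), that is, lower in male heads. In salivary glands 0 of 3 genes were higher in males, against 16.8% of 1903 genes. In eyes, 4 of 16 genes were higher in males, against 19.5% of 2567 genes by the same rule. These were futsch at 17.7 times (5.76 to 89.8), trio at 5.71 times (2.15 to 19.1), and onecut and CadN. Both onecut and CadN had 0 counts in female eyes and were higher only by a bound from 3 counts (1.9 and 1.52). In heads and eyes the shares of genes higher in males are near those over all genes. In eyes 0 of the 16 genes were lower in males, below the 27.9% over all 2567 genes. A comparison of 1 library against 1 is of those libraries, not of the sexes. Eggshell genes took 8.36% of female eyes, the photoreceptor list took 5.37% of female and 19.2% of male eyes, and Mst98Ca was high in female heads. Their part in these differences was not tested, nor was that of the dissection of male heads in PBS.

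Heads were set beside gonads without a test, as each is 1 library of a sex. All 15 genes with enough counts in female heads or ovaries were higher in female heads, against 31.7% of 3030 genes. Of these, 2 were higher by counting interval and 13, at 0 in ovaries, only by a bound from 3 counts (1.51 to 11.2). All 19 with enough counts in male heads or testes were higher in male heads, against 28.9% of 3239 genes, and 0 were lower, against 34.5%. Of the 19, 3 were higher by counting interval and 16, at 0 in testes, only by a bound from 3 counts (1.31 to 7.19). A bound leaves out the counting error of heads, and a bound near 1 need not exclude equal levels. Syx1A was 25.5 times higher in female heads than in ovaries (counting interval 12.8 to 55.2) and 10.3 times higher in male heads than in testes (5.44 to 21.8). unc-13 was 11.3 times higher in female heads than in ovaries (2.74 to 99.7, 2 counts in ovaries) and Sh 11.2-fold by a bound from 3 counts. In males, trio was 18.3 times higher in heads than in testes (3.03 to 749, 1 count in testes) and futsch 17.5 times (4.66 to 150, 2 counts).

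The counts were also divided by annotated transcript, as estimated by the authors' assignment of reads. Of the 24 pairs of gene and library with 20 or more counts, spread over 11 genes, 9 genes had at least 2 such libraries. The leading transcript was the same in these libraries for 7 genes and differed for futsch and Sh. For brp, brp-RD led by counts in both head libraries, with 47.3% in females and 30.4% in males, but by TPM brp-RE led in females and brp-RK in males. In salivary glands Syt1-RE took 100% of the Syt1 counts of females (Wilson interval 90.4% to 100%) and 91.2% in males (78.1% to 96.8%). In male heads Syt1-RH led with 8.4 of 11 counts, female heads had 3 counts of Syt1-RG, and Syt1-RE was at 0 in both head libraries. The 3 Syt1 counts of male eyes were Syt1-RE. Syt1 lies on chromosome 2L from 2772327 to 2799979 on the minus strand of BDGP6. Syt1-RE starts with an exon of 56 bases, from 2795489 to 2795544, that no other Syt1 transcript overlaps, and 157 of its exonic bases are in no other Syt1 transcript. The first exon of Syt1-RH, at 2799909 to 2799979, overlaps 6 other Syt1 transcripts.

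futsch-RE and futsch-RF differ in their first exon, at 1411726 to 1411978 and at 1409069 to 1410121 of the plus strand of chromosome X, and in the end of the last exon, at 1453686 and 1451367. futsch-RE took 92.3% of the futsch counts in male heads (Wilson interval 82.1% to 97%) and 44.3% in male eyes (31.1% to 58.5%), where futsch-RF took 55.7%. These intervals do not overlap. In female heads futsch-RF had 16.3 of 19.2 counts, a total just under the minimum of 20 used for shares. Heads of the sexes therefore had opposite leading transcripts for futsch, on 1 library each. The exons of futsch overlap those of Gr2a on the same strand, by up to 1024 bases. Part of the futsch counts may belong to that gene, and its effect on this split was not tested.

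For para, all 60.5 head counts fell on para-RAK, 1 of 60 annotated transcripts, with 100% in females (Wilson interval 87.7% to 100%) and in males (89.6% to 100%). The 7.4 counts of eyes fell on para-RAC instead. para-RAK has 370 exonic bases in no other para transcript. fne-RA held 13 of 13 counts in female heads and 15 of 21 in male heads, while the eye counts were all fne-RJ, which has a last exon that ends further downstream, at 12950417 against 12946692 on the plus strand of chromosome X. Rdl-RD led in both head libraries, with 86.7% in females and 87.5% in males, and has its own first exon of 199 bases. Syx1A-RA, a transcript of 1 exon, held at least 98.4% of Syx1A counts in each head and eye library.

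unc-13-RA led in all 4 eye and head libraries, with 91.3% and 100% in female and male eyes and 87.1% in male heads. In female heads it had 50.4% (Wilson interval 30.3% to 70.4%) beside 49.6% of unc-13-RC, a transcript of 9778 bases where unc-13-RA has 9769. trio-RA held 100% of trio counts in male eyes and 96.3% in male heads, and all counts of both salivary gland libraries. Sh-RC led in female heads with 44.4% and Sh-RM in male heads with 62%, but by TPM Sh-RC had 14.5% in female heads and Sh-RM led in both. The 12.2 Appl counts of female heads were all Appl-RC and the 11 of male heads all Appl-RA, transcripts with no exonic bases of their own. Transcripts without sequence of their own are told apart only by junctions or by ends of exons, and the intervals do not cover that uncertainty.

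**Figure D5:**
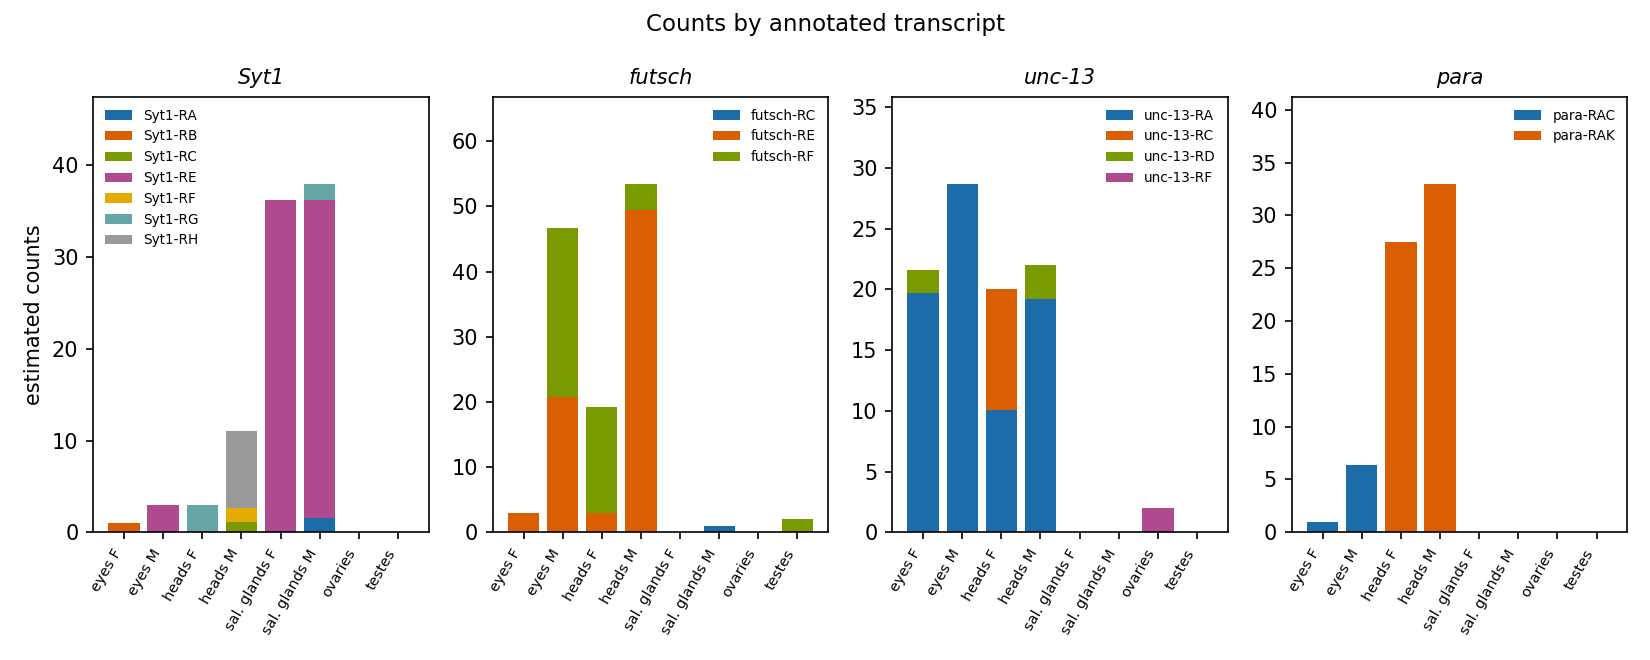
Estimated counts (vertical axis, a separate scale in each panel) of Syt1, futsch, unc-13 and para in each library, stacked by annotated transcript. Syt1-RE makes up nearly all salivary gland counts of Syt1, futsch-RE leads in male heads and futsch-RF in female heads and male eyes, and para-RAK is seen in heads and para-RAC in eyes.

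A wider list of 71 other genes, listed as neuronal and synaptic and with the 31 left out, was also highest in heads, but was higher in the gonads than in salivary glands. In it the listed Trh was read as trh, another gene, which had 0 counts in all 8 libraries. The list took 0.415% to 0.546% of heads, 0.137% to 0.255% of eyes, 0.111% of ovaries, 0.0579% of testes and 0.0249% to 0.0403% of salivary glands. Of its 28 genes with 10 or more counts, 14 followed the head pattern, against 9.45% of all such genes. This list too was chosen with earlier results of these data known, so its shares are a description and not a test. In the fit of glands against heads 8 of 14 genes tested were lower and 0 higher at an adjusted p under 0.05. Of all 1316 genes 13.3% were lower and 13.7% higher. They were unc-104, the kinesin of vesicle transport, Atpalpha, the sodium pump, qvr and Hk, which act with Shaker channels, the scaffold gene CASK, the potassium channel gene Irk2, Rab27 and Nrg, a neuroglian. unc-104 had the smallest p of the list (edgeR adjusted p = 0.0184). The list's median log2 fold change was -6.66, or -3.75 with genes at 0 set to their bound, against 0.14 and -0.54 over all genes. Of the 14, 8 were at 0 in both gland libraries and passed the filter through other tissues, so their sign was fixed in advance. These include every gene called except Atpalpha, which had 1 count in male glands. In eyes against heads the 14 all had estimates below 0 (median -0.81), against 48.2% of all genes (median 0.06). By edgeR 0 of the 14 passed at an unadjusted or adjusted p under 0.05. Ih, a channel opened by hyperpolarisation, had the most head counts of the list, at 1092 and 1310 CPM in female and male heads, 195 and 553 CPM in eyes and 192 and 90.6 CPM in salivary glands. Some of the list were high outside the nervous system, chosen here after their values were seen, with Eps-15, an endocytic adaptor, at 551 CPM in ovaries against 237 and 267 CPM in heads, and Rab27 at 192 CPM in ovaries against 180 and 141 CPM in heads.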

How the data were processed

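The members and gene lists were chosen with earlier results of these data known. The authors deposited estimated counts, which need not be whole, and TPM, corrected for length, for 31089 transcripts in 8 libraries, per the file headers. The authors also deposited read counts for each library (262332 to 334257, of which 90780 to 156627 passed the authors' filter). Per the submitters' processing notes, the tools included minimap2, Salmon and edgeR, with BDGP6 as build; neither versions nor the read filter were stated.

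Transcripts were matched to the BDGP6 annotation (31048 matched, 41 did not), summed over 14292 genes and rounded for tests. CPM uses the total over matched rows, rRNA-named rows included. edgeR 4.0.16 in R 4.3.3 (TMM, robust quasi-likelihood, Benjamini-Hochberg, threshold 0.05) was run on the 6 somatic libraries as tissue plus sex and checked on simulated data. Where edgeR holds a p to a Poisson bound (futsch, eyes against heads), the SE was set to match that p. DESeq2 1.42.0 and limma 3.58.1 were alternatives. Intervals are at 95%: Wilson for shares, exact Poisson for levels and exact binomial for ratios of rounded counts. Bounds against 0 counts set the 0 to 3 counts and leave out the counting error of the other side. All 31 members were named; of the other list, those past the threshold and up to 3 with the most head counts. Depth limits precision to 6.6 to 11.3 CPM a count. Sequences of the genes were not used here.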

Additional observations from a re-analysis of the deposited data

How the results depend on the processing

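No paired analysis was possible because each group has 1 library and the labels give no replicate numbers; sex was a term of the fit instead. Salivary glands against heads called 355 genes and 10 of the 12 members, and leaving out 1 of the 6 libraries gave 185 to 739 genes and 5 to 14 members, but the filter then kept 1724 to 1831 genes and 12 to 15 members (14 of 15 called without female eyes, 5 of 15 without female heads). Eyes against heads called 0 genes and 0 members, and 3 genes with DESeq2 size factors, 1 at a minimum count of 5, 38 with no filter and 32 with DESeq2; leaving out 1 library gave 0 to 194 genes and 0 to 1 members. Female against male called 0 genes, and 1 with DESeq2 size factors, 1 at a minimum count of 5, 9 with no filter and 2 with DESeq2; leaving out 1 library gave 6 to 33 genes and 0 members. Leaving out 1 library leaves a tissue with 1 library, which is assumed to vary like the others. The head pattern held for 13 members, for 11 with rRNA-named rows left out of totals, for 12 by TPM, and for 13 to 23 without 1 library. Leaving out a library makes the rule easier to meet for any gene, and the share over all genes was not taken for these variants.

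Signs reversed only without 1 library, and only for estimates that were not called. In eyes against heads futsch was 0.33 without female eyes and 0.29 without female heads (from -2.73 to 0.33 over libraries left out), and unc-13 was -0.03 without male heads (-0.03 to 0.96). In glands against heads trio was 0.04 without male heads and 0.65 without male glands (-1.72 to 0.65). In females against males Appl was 0.16 and 0.18 (-1.84 to 0.18) and brp -0.15 and -0.13 (-0.15 to 1.14) without female or male eyes, and Syx1A was -0.01 without either head library (-0.01 to 0.59). The cause was not tested. Without its most counted member, the summed share was 0.0603% and 0.145% in female and male eyes, 0.17% and 0.28% in heads, 0.00727% and 0.00907% in salivary glands, 0.00265% in ovaries and 0.00566% in testes. With rRNA-named rows and qtc left out of totals it was 0.119% and 0.242% in eyes and 0.352% and 0.466% in heads. At most 16 of the 31 members had 10 or more counts in any 1 library, which limits the differences that could be seen.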
